A study of Homo sapiens with 46 samples.

Results

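The Frizzled genes FZD1 to FZD10 were followed through 4 subcellular fractions of human pluripotent stem cells (hPSC) and of the ectoderm, endoderm and mesoderm cells made from them. Rows were taken by name: every row of a cell type's own transcript table that carries a Frizzled symbol was taken and summed to the gene. The 10 members lie among 21166 Ensembl genes found in at least 1 of the 4 tables. The ectoderm table of 17713 genes held all 10 members, and the hPSC table of 15115 genes held 8, with no row for FZD8 or FZD10. The mesoderm table of 15004 genes held 7, with no row for FZD8, FZD9 or FZD10. The endoderm table of 13644 genes held 5, with no row for FZD2, FZD3, FZD8, FZD9 or FZD10. FZD1, FZD4, FZD5, FZD6 and FZD7 were therefore the only members measured in every cell type. A member without a row has no value here, which is not the same as a level of 0.

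Frizzled proteins are receptors that cross the membrane several times and bind Wnt ligands through an extracellular cysteine-rich domain. Together with the co-receptors LRP5 and LRP6 they act through Dishevelled to stabilise β-catenin, and together with ROR-family receptors, PTK7 or the planar polarity proteins they signal without it. The ubiquitin ligases RNF43 and ZNRF3 remove Frizzled receptors from the cell surface, and R-spondins bound to LGR receptors oppose that removal. In the early embryo Wnt signals help to form mesoderm and endoderm, while anterior neural ectoderm forms where Wnt signalling is held low.

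The study used H1, an established human embryonic stem cell line kept in mTeSR1 medium, and sequenced 46 libraries in 16 groups, each group being 1 cell type and 1 fraction. Every group had 3 libraries except mesoderm nucleoplasm, which had 1. Ectoderm was made with 2 µM A83-01, 2 µM PNU-74654 (an inhibitor of β-catenin with TCF), 2 µM dorsomorphin and 15% KOSR. Endoderm was made in RPMI with 0.5% FBS, WNT3A and 100 ng/ml Activin A. Mesoderm was made with 100 ng/ml VEGF, 100 ng/ml BMP4, 10 ng/ml bFGF and 0.5% FBS, with 100 ng/ml Activin A at the start only. The 3 differentiated cell types were collected after 5 days, and hPSC were the undifferentiated cells. Wnt ligand was thus added to endoderm, and a Wnt pathway inhibitor to ectoderm. Cells were opened with a mild detergent over sucrose to give the cytoplasm. Nuclear RNA came from some of the pellet, and the rest was lysed in urea into a soluble nucleoplasm and a chromatin pellet, with α-amanitin in the buffers. All cells came from this 1 line, and the labels do not say whether the repeats were separate cultures, so the p-values measure the spread between these libraries, which may be technical.

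The labels were first checked against marker genes. In cytoplasm the 7 pluripotency genes summed to 7440 to 8410 counts scaled to a common library total (CPM) in hPSC, and to 1850 to 2280 CPM in ectoderm, 4950 to 5870 CPM in endoderm and 2730 to 2860 CPM in mesoderm. In ectoderm LIN28A held 1530 to 1900 CPM, POU5F1 was at 5.19 to 7.63 CPM against 2600 to 3580 CPM in hPSC, and NANOG had no row. In endoderm POU5F1 stayed at 1540 to 2000 CPM, and NANOG at 56.4 to 59.9 CPM overlapped hPSC at 56.7 to 87.9 CPM. The ectoderm list, of which SOX1 was in no table, summed to 907 to 1020 CPM in ectoderm and to 52.7 to 63 CPM in hPSC. All 7 endoderm genes were present in endoderm, at a sum of 300 to 425 CPM, and the hPSC and ectoderm tables had none of them. SOX17 at 142 to 189 CPM and GATA6 at 86.6 to 125 CPM led that sum, and CXCR4, CER1 and GSC lay between 1.82 and 8.55 CPM. The mesoderm list summed to 134 to 141 CPM in mesoderm and to 94.1 to 122 CPM in endoderm; in mesoderm HAND1 made up nearly all of it, TBXT was at 0.117 to 0.148 CPM, and KDR, MESP1 and MIXL1 had no row. The mesoderm list stood above hPSC in cytoplasm alone, where hPSC had 32.7 to 38.3 CPM. In the nucleus libraries it summed to 40.4 to 48.5 CPM in mesoderm and 396 to 469 CPM in hPSC, and on chromatin to 35 to 65.8 CPM and 198 to 225 CPM. The 3 neural crest genes summed to 155 to 181 CPM in mesoderm, nearly all of it TFAP2A, against 29.9 to 33.7 CPM in ectoderm.

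The fraction labels did not all match their markers. MALAT1, NEAT1, KCNQ1OT1 and SNHG14, RNAs known to stay in the nucleus, summed to 92.7 to 441 CPM in the ectoderm libraries labelled nucleus and to 1340 to 2470 CPM in those labelled cytoplasm. In endoderm, which had no row for NEAT1, the sums were 122 to 495 CPM and 513 to 712 CPM. In hPSC, which had no row for KCNQ1OT1, they were 849 to 1100 CPM and 885 to 902 CPM, which overlapped. SNHG14 alone held 645 to 691 CPM of the hPSC cytoplasm sum. Mesoderm alone had the order its labels imply, at 1270 to 1840 CPM in nucleus and 616 to 762 CPM in cytoplasm. The mitochondrial share of counts averaged 13.9%, 9.48% and 11.6% in the hPSC, ectoderm and endoderm libraries labelled nucleus, against 0.515%, 1.29% and 0.436% in cytoplasm. It averaged 11%, 8.75% and 11.2% in their nucleoplasm and 5.07%, 2.38% and 1.41% on their chromatin, so nucleoplasm also stood above cytoplasm. In mesoderm it was 1.26% in nucleus, 6.79% in cytoplasm, 1.69% in the 1 nucleoplasm library and 2.47% on chromatin. The names cytoplasm and nucleus below are the labels' names, and a direction between them is a direction between libraries so labelled. Library totals ran from 4990408 to 21298678 counts.

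Of the 10 genes, FZD1, FZD2, FZD7, FZD8, FZD9 and FZD10 have a single exon in the GENCODE annotation on GRCh38, so that their spliced and unspliced RNA are alike. FZD4 and FZD5 have 2 exons, and FZD3 and FZD6 have 7. FZD1 lies at chr7:91264364-91271326 on the plus strand and FZD2 at chr17:44557459-44559570 on the plus strand. FZD4 lies at chr11:86945679-86955391 and FZD5 at chr2:207762586-207769563, both on the minus strand, and FZD7 at chr2:202034587-202038445 on the plus strand. FZD8 lies at chr10:35638249-35642278 on the minus strand, FZD9 at chr7:73433783-73436120 on the plus strand and FZD10 at chr12:130162459-130165740 on the plus strand.

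The members are close relatives, and 2 pairs hold coding stretches that a short read could not place. The longest identical runs were 81 bases between FZD1 and FZD2 and 69 bases between FZD2 and FZD7, the latter in the region that encodes the Wnt-binding domain. They are shown because a read inside them cannot be assigned to 1 gene by its sequence. Both are coding-strand sequence, 5′ to 3′, with no part in capitals.
FZD1 and FZD2: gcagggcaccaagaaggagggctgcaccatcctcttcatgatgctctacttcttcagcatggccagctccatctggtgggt
FZD2 and FZD7: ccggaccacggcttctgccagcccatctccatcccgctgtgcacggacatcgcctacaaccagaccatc
Of the 2063 windows of 50 bases in FZD2, 32 also occur in FZD1, and 20 of the 3810 windows in FZD7 also occur in FZD2. FZD2 with FZD5 and FZD5 with FZD8 share 3 such windows each, and no other pair shares any. The part of each gene that is ambiguous at that length is therefore small.

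Promoter sequence from RefSeq on GRCh38.p14 matched 5 of the 10 members by symbol, FZD1, FZD4, FZD5, FZD8 and FZD9. Sequence from the 250 bases before the start of FZD1, FZD4 and FZD5 is printed, for FZD1 only the 181 bases that also lie before the GENCODE gene, because these 3 genes differed most between cell types, as given further on. Capitals mark matches, on either strand, to the GC box GGGCGG and the CCAAT box CCAAT, so that CCGCCC and ATTGG are matches on the other strand, and each sequence runs 5′ to 3′ on the gene's strand. Overlapping matches were counted separately.
FZD1, chr7:91264183-91264363, plus strand: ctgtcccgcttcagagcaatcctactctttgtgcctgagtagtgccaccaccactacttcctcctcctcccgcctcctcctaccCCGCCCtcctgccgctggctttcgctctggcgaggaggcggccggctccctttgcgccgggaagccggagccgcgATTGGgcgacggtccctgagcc
FZD4, chr11:86955396-86955645, minus strand: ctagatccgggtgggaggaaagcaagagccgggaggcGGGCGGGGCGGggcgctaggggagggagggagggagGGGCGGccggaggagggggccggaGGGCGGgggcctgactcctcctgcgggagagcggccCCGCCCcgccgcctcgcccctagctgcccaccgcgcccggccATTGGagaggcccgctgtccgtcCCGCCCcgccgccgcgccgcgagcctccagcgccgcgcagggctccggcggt
FZD5, chr2:207769907-207770156, minus strand: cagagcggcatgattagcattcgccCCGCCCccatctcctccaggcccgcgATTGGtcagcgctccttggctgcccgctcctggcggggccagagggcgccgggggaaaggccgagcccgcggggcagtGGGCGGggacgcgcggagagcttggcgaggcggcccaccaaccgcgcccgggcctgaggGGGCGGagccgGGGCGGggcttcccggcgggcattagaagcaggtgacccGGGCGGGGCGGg
Over the 250 bases, GC content was 65.2% for FZD1, 80.8% for FZD4 and 76.8% for FZD5, against a median of 58.0% over 35116 promoters. GGGCGG occurred in all 5 members, 6 times each in FZD4 and FZD5 and once in FZD1, and in 42.6% of all promoters of the same length. CCAAT occurred in 4 of 5 members and in 11240 of the 35116 promoters. The TATA box TATAAA occurred in FZD8 alone among the 5, and in 10.7% of promoters. The TCF/LEF sequence ATCAAAG, searched on both strands, occurred in none of the 5 and in 2.26% of promoters, which says only that those letters are not in these windows. RefSeq's start lies 69 bases inside the GENCODE gene for FZD1 and upstream of it for the other 4, by 4 bases for FZD4, 5 for FZD9, 18 for FZD8 and 343 for FZD5.

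**Figure D1:**
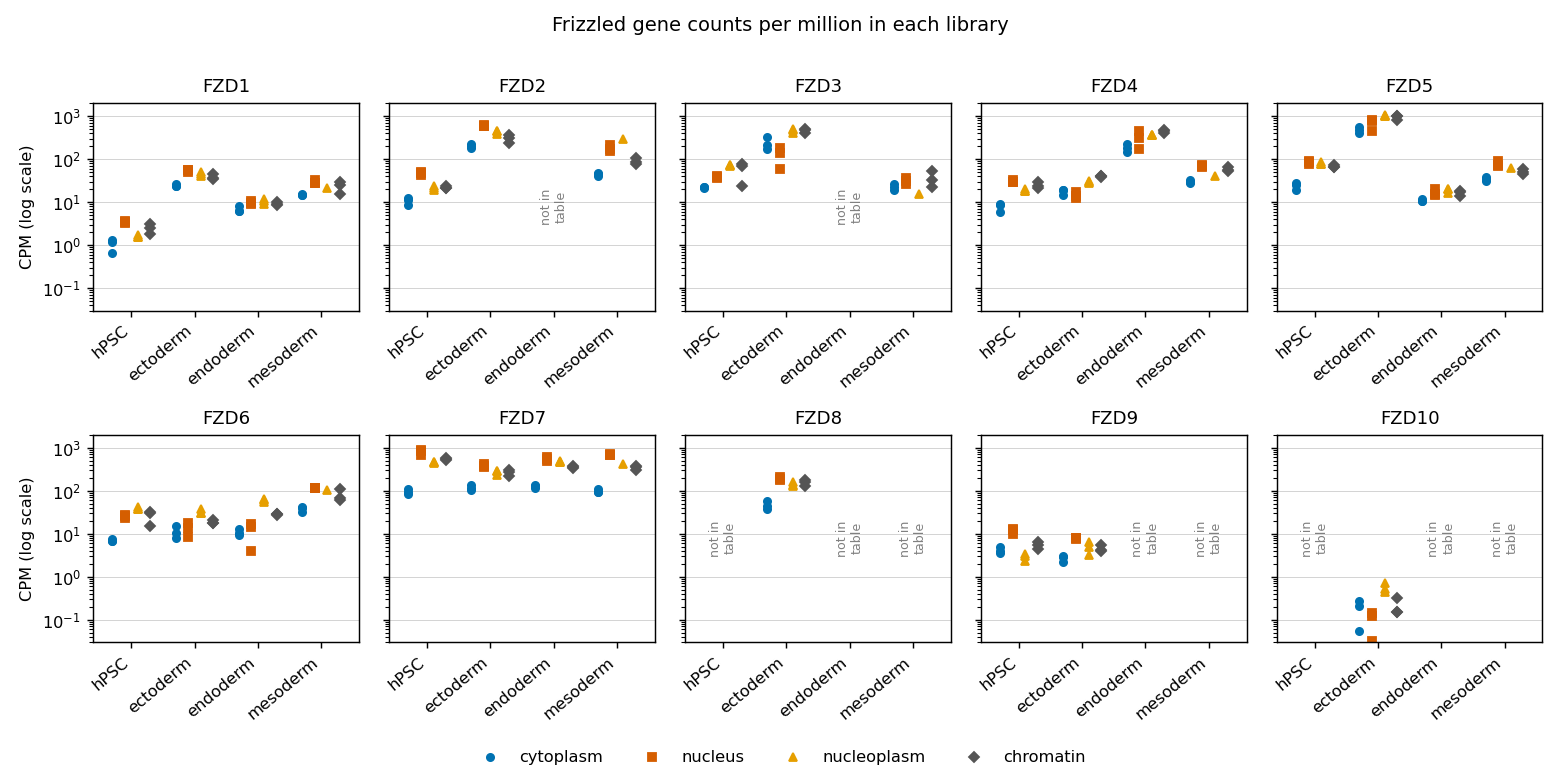
Each point is 1 library: CPM of a Frizzled gene on a log axis, by cell type along the x axis and by fraction in colour and shape, with 3 libraries a group and 1 for mesoderm nucleoplasm. FZD7 has cytoplasmic means of 93.9 to 126 CPM in the 4 cell types, while FZD5 and FZD2 are highest in ectoderm and FZD4 in endoderm; the 1 FZD10 library at 0 is drawn at the lower edge of its panel.

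FZD7, a receptor known as a surface marker of human pluripotent cells, was the Frizzled RNA with the highest level per length in hPSC. Levels of different genes are compared only in TPM, which divides each count by the length of its transcript model. In hPSC cytoplasm FZD7 stood at 21.4 ± 5.58 TPM (SD, n = 3), ahead of FZD5 at 3.56 TPM and FZD2 at 2.92 TPM, and the libraries of FZD7 lay above those of every other member. The libraries of FZD5 and FZD2 overlapped. FZD6, FZD9 and FZD3 followed at 2.02, 1.90 and 1.61 TPM, each overlapping the next, then FZD4 at 1.08 TPM and FZD1 at 0.313 TPM, both apart from their neighbours. FZD7 held 61.1% of the summed Frizzled TPM in hPSC cytoplasm and 79.5% in the libraries labelled nucleus. FZD7 also led in endoderm, at 32.8 ± 2.33 TPM (SD, n = 3) in cytoplasm, above all libraries of FZD5, FZD6 and FZD1 but overlapping those of FZD4 at 26.3 ± 5.99 TPM. In mesoderm cytoplasm FZD7 was again first at 25.4 ± 3.29 TPM, followed by FZD2 at 13.7 TPM and FZD6 at 12 TPM, which overlapped each other.

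Ectoderm had another order. FZD5, a receptor known for its role in eye development, stood at 83.2 ± 19.0 TPM (SD, n = 3) in cytoplasm, and FZD2 at 66.8 ± 11.4 TPM, with overlapping libraries. FZD7 followed at 31.2 TPM, and then FZD3, a receptor of axon guidance and planar polarity, at 20.6 TPM. FZD8 stood at 10.7 TPM, FZD1 at 7.02 TPM, FZD6 at 3.72 TPM, FZD4 at 3.55 TPM and FZD9 at 1.47 TPM. From FZD7 to FZD1 each overlapped its neighbour in this order, as did FZD6 and FZD4. In the ectoderm libraries labelled nucleus the first place passed to FZD2, at 200 TPM and 40% of the Frizzled sum, with FZD5 at 120 TPM. Summed over members, cytoplasmic Frizzled RNA came to 228 TPM in ectoderm, 69.6 TPM in mesoderm, 68.5 TPM in endoderm and 34.8 TPM in hPSC, a sum over 10, 7, 5 and 8 members. The mesoderm FZD3 and endoderm FZD5 values in TPM rest on shorter transcript models, as given with the cell type comparisons.

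FZD10 was near the limit of detection. It had 42 counts over all 12 ectoderm libraries, at 0.21, 0.277 and 0.0541 CPM in cytoplasm and 0.505, 0.708 and 0.428 CPM in nucleoplasm. In the nucleus libraries it was at 0, 0.141 and 0.123 CPM, and the library at 0 allows up to 0.388 CPM for a count of 0 (3 counts of its total, counting error only). FZD10 fell to the filter on low counts and was not tested.

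**Figure D2:**
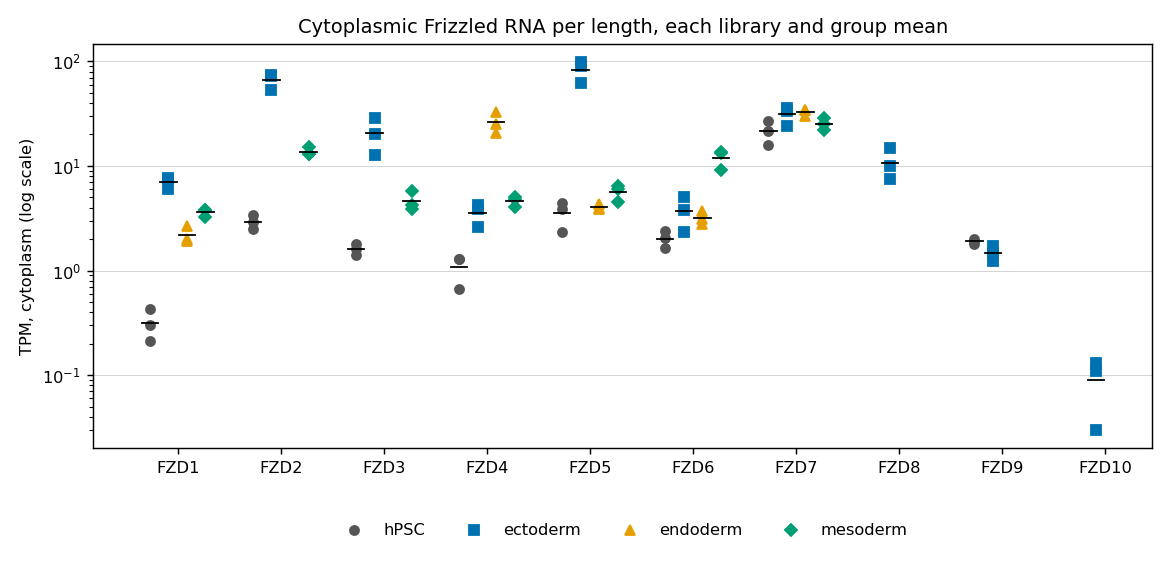
Each point is the cytoplasmic TPM of 1 Frizzled gene in 1 library on a log axis, coloured by cell type, and the bar is the mean of 3 libraries. FZD7 leads in hPSC, endoderm and mesoderm at means of 21.4, 32.8 and 25.4 TPM, and FZD5 and FZD2 lead in ectoderm at 83.2 and 66.8 TPM.

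Within each cell type, Frizzled RNA made up a smaller share of the libraries labelled cytoplasm than of those labelled nucleus. In hPSC all 8 members tested were lower in cytoplasm by edgeR's quasi-likelihood test at a Benjamini-Hochberg adjusted p under 0.05, where 30.4% of all genes tested were lower. In ectoderm 7 of 9 were lower against 26.8% of all genes, in endoderm 5 of 5 against 35.6%, and in mesoderm 6 of 7 against 31.4%. No member was called higher in cytoplasm, where 35.2%, 27.5%, 34.4% and 31.9% of genes were in hPSC, ectoderm, endoderm and mesoderm. The cytoplasm and nucleus libraries did not overlap for 8 of 8 members in hPSC, 7 of 7 in mesoderm, 5 of 9 in ectoderm and 3 of 5 in endoderm, but neither did they for 71.7%, 75%, 57.9% and 75.9% of all genes. The members' median log2 change was -1.13 in mesoderm, -1.46 in ectoderm, -1.40 in endoderm and -1.90 in hPSC, beside medians over all genes of 0, 0, 0.01 and 0.1. CPM values are shares of a fraction's library, and the log2 changes are scaled further between libraries (TMM). Neither gives the amount of Frizzled RNA per cell in either fraction. With total-count scaling alone the median of all genes shifted by 0.71 in endoderm, 0.34 in ectoderm, 0.07 in hPSC and -0.1 in mesoderm. Over the alternatives the endoderm log2 changes reached -0.48 for FZD1, -0.77 for FZD4 and -0.63 for FZD5, with these calls kept. The nuclear markers followed the labels in mesoderm alone, and the part of the labels in these counts was not tested.

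FZD7 had the largest change of any member in hPSC, endoderm and mesoderm. In hPSC it was at 81.9, 90.9 and 109 CPM in cytoplasm and at 673, 864 and 838 CPM in nucleus. The groups lay far apart, and the log2 change was -3.15 (SE 0.14, edgeR adjusted p = 4.6e-10). In endoderm FZD7 was at 128, 133 and 116 CPM against 549, 498 and 595 CPM, a log2 change of -2.86 (SE 0.18, adjusted p = 3.19e-09). In mesoderm it was at 111, 93.9 and 93.8 CPM against 666, 666 and 715 CPM, a log2 change of -2.68 (SE 0.16, adjusted p = 5.2e-07). Again no cytoplasm library reached any nucleus library. In ectoderm FZD7 was at 134, 102 and 112 CPM against 417, 346 and 375 CPM, a log2 change of -2.04 (SE 0.13, adjusted p = 4.82e-08), also without overlap.

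FZD2, a receptor for WNT5A and other ligands, was also lower in the 3 cell types that list it. It was at 12.5, 8.62 and 11.3 CPM in hPSC cytoplasm and at 42.5, 48.6 and 50 CPM in nucleus, a log2 change of -2.21 (SE 0.16, adjusted p = 5.55e-08). In ectoderm it was at 222, 185 and 199 CPM against 620, 597 and 577 CPM, a log2 change of -1.91 (SE 0.14). In mesoderm it was at 47.2, 39.4 and 44.1 CPM against 176, 153 and 216 CPM, a log2 change of -1.96 (SE 0.17). The cytoplasm and nucleus libraries did not overlap in any of the 3. FZD8, measured in ectoderm, was at 42.7, 36.6 and 56.9 CPM against 190, 173 and 202 CPM, and its log2 change of -2.39 (SE 0.16, adjusted p = 7.41e-08) was the largest of the family there. FZD9 was lower in both cell types that list it, by a log2 change of -1.60 (SE 0.22) in hPSC and -1.88 (SE 0.26) in ectoderm, at means of 4.09 against 11.6 CPM and 2.66 against 7.84 CPM.

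FZD1 was lower in cytoplasm in all 4 cell types. Its log2 changes were -0.89 (SE 0.21) in mesoderm, -1.46 (SE 0.12) in ectoderm, -1.21 (SE 0.20) in endoderm and -1.79 (SE 0.30) in hPSC, and no cytoplasm library overlapped a nucleus library. FZD5 was lower in all 4 as well, by -1.06 in mesoderm, -0.80 (SE 0.14) in ectoderm, -1.40 (SE 0.24) in endoderm and -1.90 (SE 0.13) in hPSC. Its ectoderm libraries overlapped, at 572, 412 and 472 CPM against 829, 445 and 774 CPM, and that call was lost with scaling by total counts alone (log2 change -0.49, adjusted p = 0.0554) and with TPM (-0.47, adjusted p = 0.15). FZD6, which acts in planar polarity and can oppose β-catenin signalling, was lower by -1.90 (SE 0.24) in hPSC and -1.53 in mesoderm without overlap. In ectoderm and endoderm it was lower by -0.55 (SE 0.21, adjusted p = 0.0411) and -0.76 (SE 0.27, adjusted p = 0.0224) with overlapping libraries. Scaling by total counts left these at -0.23 (adjusted p = 0.509) and -0.13 (adjusted p = 0.752), and both calls were also lost on leaving out nucleus library 3 or cytoplasm library 3, the ectoderm one without nucleus library 1 or cytoplasm library 2 and the endoderm one without nucleus library 2 or cytoplasm library 1 as well (adjusted p = 0.0699 to 0.158).

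FZD4, the receptor for norrin as well as Wnt, and FZD3 were the members that broke the pattern. FZD4 was at 5.76, 8.89 and 8.62 CPM in hPSC cytoplasm and at 29.2, 31.9 and 29.2 CPM in nucleus, a log2 change of -2.01 (SE 0.17, adjusted p = 2.66e-07). In ectoderm the values were 19.1, 14.8 and 18.6 CPM against 13.7, 12.5 and 17.4 CPM, which overlapped and did not pass the test (log2 change -0.08, SE 0.13, adjusted p = 0.613). In mesoderm FZD4 was lower by -1.13 without overlap, and in endoderm by -1.44 (SE 0.21, adjusted p = 2.16e-05) with overlap, at 220, 178 and 143 CPM against 171, 308 and 447 CPM. FZD3 in ectoderm was at 334, 171 and 211 CPM in cytoplasm and 182, 60 and 141 CPM in nucleus, overlapping values with a log2 change of 0.60 (SE 0.26) that missed the threshold (adjusted p = 0.0681). DESeq2 called it higher (0.60, adjusted p = 0.0406), as did total-count scaling (0.90, adjusted p = 0.0342) and TPM (0.88, adjusted p = 0.0358). In hPSC FZD3 was lower by -0.83 (SE 0.30, adjusted p = 0.0256), a call that was lost on leaving out cytoplasm library 2 or 3 or nucleus library 2 or 3 (adjusted p = 0.0573 to 0.0708). In mesoderm it did not pass (-0.42, SE 0.26, adjusted p = 0.184), although its libraries did not overlap, and TPM called it lower at -1.19.

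**Figure D3:**
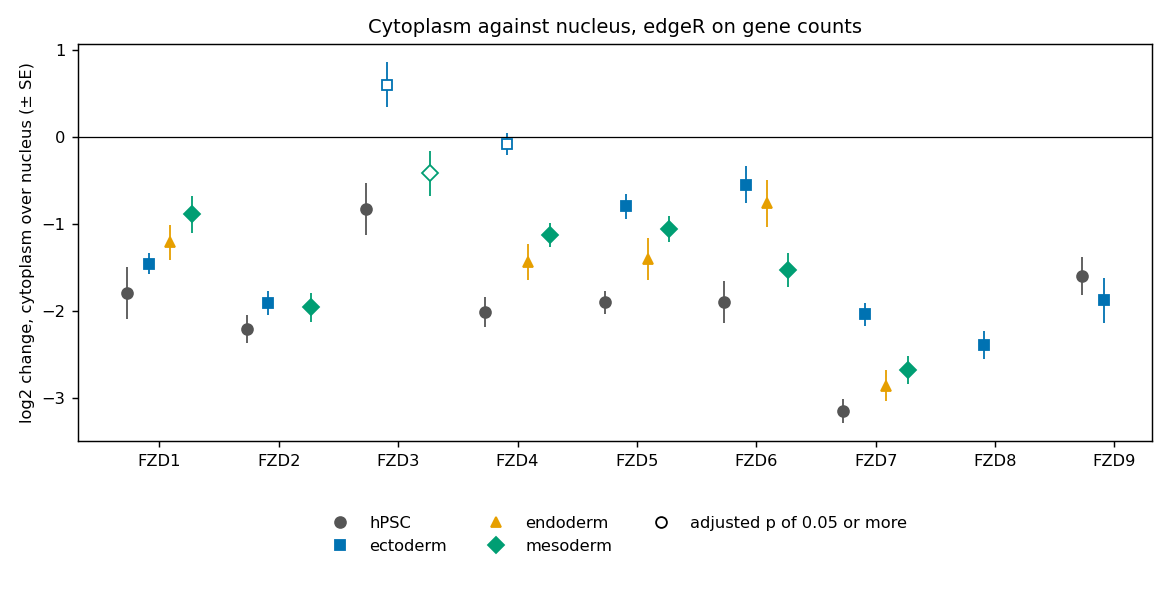
Each point is the log2 change of 1 Frizzled gene, cytoplasm over nucleus, in 1 cell type, with its standard error; open points did not pass the test. Points below the line at 0 were lower in cytoplasm, and FZD7 in hPSC is lowest at -3.15, while FZD3 in ectoderm is the 1 point above the line.

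Whether these differences themselves differed from hPSC was tested as an interaction. In ectoderm 5 of 8 members had a higher log2 change of cytoplasm over nucleus than in hPSC, where 28.6% of all genes moved that way: FZD4 by 2.05 (SE 0.22, adjusted p = 3.06e-07), FZD3 by 1.56, FZD6 by 1.47, FZD7 by 1.23 and FZD5 by 1.21 on the log2 scale. In mesoderm 3 of 7 did, against 16.9% of genes: FZD1 by 0.98 (adjusted p = 0.0481), FZD4 by 0.96 and FZD5 by 0.91. In endoderm 1 of 5 did, against 17.8% of genes: FZD6 by 1.18 (adjusted p = 0.0159). By this test on counts no member moved the other way, as 24.3%, 17.1% and 6.68% of genes did in ectoderm, endoderm and mesoderm. The count for endoderm was 5 with total-count scaling, under which the median of all genes shifted by 0.60, and 3 with TPM, and it was 0 without cytoplasm library 2 and 3 without nucleus library 1. The mesoderm call of FZD1 was lost under 11 of 12 omissions of 1 library, and none of the 3 mesoderm calls stood by TPM, where the median of all genes shifted by -0.78: FZD1 was called the other way (-0.89, adjusted p = 0.0123), and FZD4 (-0.35, adjusted p = 0.241) and FZD5 (0.01, adjusted p = 0.982) did not pass. The test takes the fraction labels as given. The mitochondrial share was higher in nucleus than in cytoplasm in hPSC, ectoderm and endoderm, where nucleoplasm had a high share too, and lower in mesoderm. The direction of each interaction depends on the labels of both cell types, and values with labels exchanged were not computed.

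The 3 nuclear fractions were set side by side without a test. A member was counted as above both when every library labelled nucleus exceeded every nucleoplasm and every chromatin library of that cell type. In hPSC 5 of 8 members were above both, where 9.54% of genes were, and none was below both. In ectoderm 4 of 9 were above both, against 17% of genes, and 2 were below both, against 37.9%. In endoderm 1 of 5 was above both, against 13%, and 1 below, against 21.6%. In mesoderm, with 1 nucleoplasm library, 4 of 7 were above both, against 4.12% of genes, and none below, against 1.53%. FZD7 was above both in all 4 cell types. FZD1 and FZD2 were in hPSC and ectoderm, FZD9 in the same cell types, and FZD4 in hPSC and mesoderm. FZD5 and FZD6 were above both in mesoderm. FZD3 and FZD4 in ectoderm and FZD6 in endoderm were below both.

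The same counts were taken by exon number. Of 14 combinations of a single-exon member and a cell type, 10 were above both and 4 were neither. Of 15 combinations with a member of 2 or 7 exons, 4 were above both, 3 below both and 8 neither. The combinations repeat the same genes across cell types, so they are no independent replicates and were not tested. FZD7 is among the 10 in every cell type. Shares of all genes by exon number were not computed, so these counts have no background beside them. In hPSC FZD9 was at 9.89, 12.1 and 12.9 CPM in nucleus against 2.95, 3.35 and 2.35 CPM in nucleoplasm and 4.49, 6.25 and 5.3 CPM on chromatin. FZD6 in endoderm ran the other way, at 3.96, 16.7 and 14.6 CPM in nucleus, 60.5, 55.5 and 63.2 CPM in nucleoplasm and 27.7, 29 and 28.5 CPM on chromatin. FZD3 in ectoderm was at 182, 60 and 141 CPM in nucleus and between 404 and 495 CPM in all 6 other nuclear libraries. The endoderm and ectoderm libraries labelled nucleus were those with low nuclear-marker sums, and the part of this in the result was not tested.

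**Figure D4:**
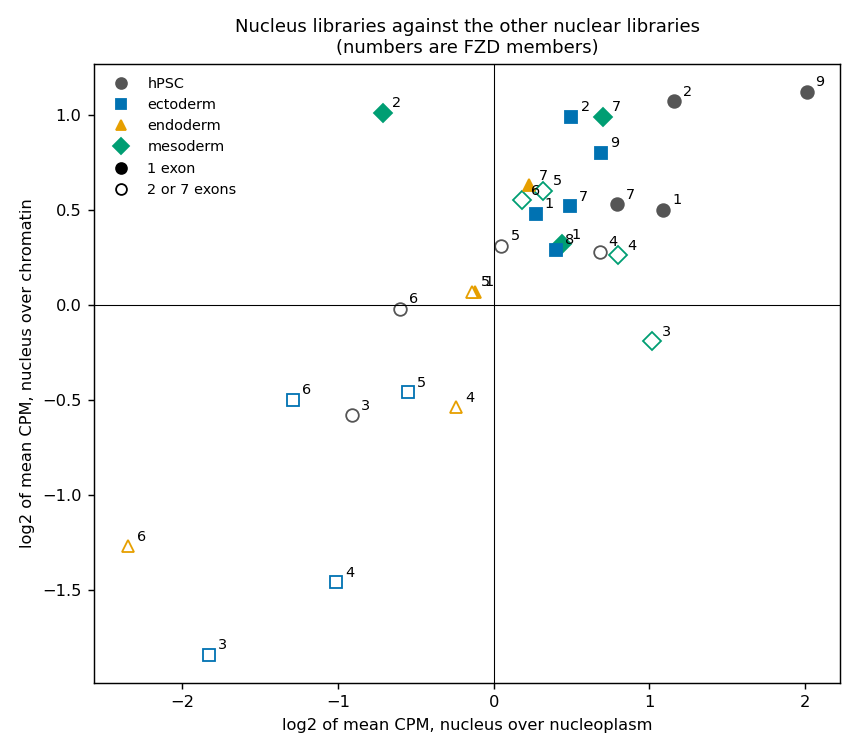
Each point is 1 Frizzled gene in 1 cell type: log2 of the mean CPM in nucleus over that in nucleoplasm on the x axis and over that on chromatin on the y axis, filled for genes of 1 exon and open for 2 or 7 exons. FZD9 and FZD2 of hPSC lie at the upper right, and FZD3 and FZD4 of ectoderm and FZD6 of endoderm at the lower left.

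Chromatin was compared with nucleoplasm in the 3 cell types that have 3 libraries of each. In hPSC 3 of 8 members were called, against 30.6% of genes: FZD6 lower by -0.80 (adjusted p = 0.0146), FZD5 lower by -0.49 (adjusted p = 0.0121) and FZD9 higher by 0.65 (adjusted p = 0.0454). The FZD6 call was lost without nucleoplasm library 1 (adjusted p = 0.0568), with total counts (-0.57, adjusted p = 0.0511), with TPM (-0.28, adjusted p = 0.276) and with just the 2 fractions fitted (adjusted p = 0.062). The FZD5 call was lost with total counts (-0.26, adjusted p = 0.158) and TPM (0.07, adjusted p = 0.732). The FZD9 call was lost with DESeq2 (0.63, adjusted p = 0.0517), with Ensembl-listed transcripts, with just the 2 fractions fitted, and without nucleoplasm library 1 or 3 or chromatin library 2 or 3 (adjusted p = 0.0705 to 0.214). In ectoderm 4 of 9 were called, against 44.4% of genes, all lower on chromatin: FZD6 by -1.06, FZD2 by -0.78, FZD1 by -0.50 and FZD5 by -0.38 (adjusted p = 0.0471). In endoderm 4 of 5 were called, against 53.7% of genes, all lower: FZD6 by -1.65 (adjusted p = 9.31e-05), FZD7 by -0.98, FZD5 by -0.79 and FZD1 by -0.77. These shares of members called lie near the background in hPSC and ectoderm. FZD6 was lower on chromatin in all 3, at 40.8, 37 and 36.4 CPM in nucleoplasm against 31.7, 29.9 and 15.2 CPM in hPSC. By TPM none of the 4 lower calls in ectoderm passed (FZD6 -0.28, adjusted p = 0.396; FZD2 -0.04, FZD1 0.24 and FZD5 0.37), and FZD4 (0.83, adjusted p = 0.00346) and FZD8 (0.57, adjusted p = 0.0442) were called higher. In endoderm FZD6 alone was called by TPM (-0.95), and in hPSC TPM called FZD2 (0.38), FZD4 (0.59), FZD7 (0.59) and FZD9 (0.90), all higher on chromatin. With total counts the calls of FZD1 in ectoderm (-0.22, adjusted p = 0.198) and of FZD1 and FZD5 in endoderm (-0.20 and -0.21) were lost as well. The FZD5 call in ectoderm was lost on leaving out any 1 chromatin or nucleoplasm library.

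Between cell types, the members were compared in the cytoplasm libraries. Each comparison used the genes present in both cell types' tables, and the tables were built separately, so that the transcript models change together with the cell type. Against hPSC, ectoderm had 6 of 8 members higher and 1 lower, where 37.1% of genes were higher and 34.8% lower. Endoderm had 2 of 5 higher and 1 lower, against 23.7% and 22.7%. Mesoderm had 5 of 7 higher and none lower, against 29.9% and 27.6%. The cytoplasm libraries did not overlap those of hPSC for 7 of 8, 5 of 5 and 5 of 7 members in ectoderm, endoderm and mesoderm, beside 74.4%, 61.3% and 69.1% of genes. These comparisons share the hPSC libraries. CPM values are shares of a library, and log2 changes are scaled further by TMM. Fewer cells of a type and less RNA per cell therefore cannot be told apart. Between lineages, 3 of 5 members were called for ectoderm against endoderm, 6 of 7 for ectoderm against mesoderm and 4 of 5 for endoderm against mesoderm, beside 66%, 53.7% and 38.8% of genes. Several of these shares lie near those of all genes, as for ectoderm against endoderm.

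FZD1 was higher in every lineage than in hPSC. It was at 1.2, 0.668 and 1.33 CPM in hPSC cytoplasm, 25.7, 23.7 and 24 CPM in ectoderm, 8.22, 6.08 and 6.33 CPM in endoderm and 15.2, 14.5 and 14.4 CPM in mesoderm. No 2 of these groups overlapped. The log2 changes from hPSC were 4.47 (SE 0.21, adjusted p = 1.39e-14), 2.55 (SE 0.26, adjusted p = 2.24e-08) and 3.73 (SE 0.27, adjusted p = 1.96e-10). In cytoplasm FZD4 was also higher in all 3, and by far the most in endoderm. There it was at 220, 178 and 143 CPM against 5.76, 8.89 and 8.62 CPM in hPSC, a log2 change of 4.36 (SE 0.22, adjusted p = 6.09e-14). In mesoderm it was at 32.6, 29.1 and 28.2 CPM (log2 change 1.86, SE 0.17) and in ectoderm at 19.1, 14.8 and 18.6 CPM (1.08, SE 0.16), again without overlap between any groups. Ectoderm against endoderm gave a log2 change of -3.21 (SE 0.19), and endoderm against mesoderm one of 2.45 (SE 0.20). In the libraries labelled nucleus FZD4 was lower in ectoderm, at 12.5 to 17.4 CPM against 29.2 to 31.9 CPM in hPSC. Endoderm and mesoderm stayed above hPSC there, at 171 to 447 CPM and 67.1 to 73.2 CPM. Cell types were not tested against each other in those libraries.

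FZD5 and FZD2 set ectoderm apart. FZD5 was at 572, 412 and 472 CPM in ectoderm cytoplasm against 18.6, 25.1 and 27.3 CPM in hPSC, a log2 change of 4.28 (SE 0.16, adjusted p = 3.73e-16). Mesoderm followed at 39.3, 35.1 and 30.3 CPM, a smaller rise of 0.48 (SE 0.15, adjusted p = 0.00809) that was lost without hPSC library 1 (0.35, adjusted p = 0.0522). FZD2 rose by 4.17 (SE 0.16, adjusted p = 4.69e-16) in ectoderm and by 1.95 (SE 0.16, adjusted p = 1.74e-09) in mesoderm, from 12.5, 8.62 and 11.3 CPM in hPSC to 222, 185 and 199 CPM and to 47.2, 39.4 and 44.1 CPM. FZD3 rose by 3.33 (SE 0.32, adjusted p = 3.64e-09) in ectoderm, from 22.9, 21.4 and 22.8 CPM to 334, 171 and 211 CPM, and all 3 ectoderm libraries lay above all those of hPSC. FZD8 and FZD10 had no row in hPSC and were not compared. FZD9, at 4.8, 4.01 and 3.45 CPM in hPSC and 2.17, 3 and 2.81 CPM in ectoderm, was the 1 member lower in ectoderm, by -0.65 (SE 0.26, adjusted p = 0.0263). That call was lost without ectoderm library 1 or hPSC library 1 or 2 (adjusted p = 0.0549 to 0.117) and with TPM (-0.24, adjusted p = 0.275).

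The length of the transcript model behind a gene differed between tables, and for 2 members the cytoplasm comparison with hPSC turned direction by TPM. The length implied by a gene's count and TPM was 7420 bases for FZD5 in hPSC, 7440 in ectoderm and 7510 in mesoderm, but 3210 in endoderm, where the GENCODE transcript has 6708. By counts FZD5 was lower in endoderm than in hPSC, at 11.5, 10.7 and 10.8 CPM, the log2 change being -1.27 (SE 0.21, adjusted p = 2.01e-05). Per length it was at 4.29, 3.85 and 3.93 TPM in endoderm against 2.35, 3.91 and 4.43 TPM in hPSC, which overlapped, and the log2 difference was 0.17. For FZD3 the implied length of the main transcript was 14800 bases in ectoderm but 8800 in mesoderm. By counts FZD3 did not pass between mesoderm and hPSC (log2 change -0.09, SE 0.29, adjusted p = 0.814), while per length it was at 5.81, 3.89 and 4.23 TPM against 1.41, 1.62 and 1.8 TPM, a log2 difference of 1.1 without overlap. A count of FZD5 in endoderm or FZD3 in mesoderm is thus a count over a shorter model. FZD7, FZD4 and FZD6 had implied lengths of 4510 to 4880, 7830 to 8080 and 3780 to 3900 bases for their main transcripts across the 4 tables. FZD1 varied more, from 3680 bases (endoderm) to 4940 (mesoderm), with 3740 for hPSC and 4420 for ectoderm. Over the alternatives its cytoplasmic rises from hPSC fell as low as 2.61 (ectoderm), 1.28 (endoderm) and 1.82 (mesoderm), with these calls kept. Its call between endoderm and mesoderm was kept under 5 of 6 alternatives. The part of model length in these values was not tested.

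In cytoplasm FZD6 was the member most raised in mesoderm beside FZD1. It was at 41.5, 39.6 and 31.2 CPM in mesoderm cytoplasm and at 6.84, 6.88 and 7.63 CPM in hPSC, a log2 change of 2.32 (SE 0.22, adjusted p = 1.88e-08). Ectoderm and endoderm both lay below mesoderm for this gene, with log2 changes of -1.84 (SE 0.20) and -1.94 (SE 0.26). In ectoderm FZD6 was at 14.9, 7.93 and 10.1 CPM, a rise of 0.54 (adjusted p = 0.0456) that was lost with DESeq2 (0.48, adjusted p = 0.0613) and without any 1 library of either group except ectoderm library 2 (adjusted p = 0.0505 to 0.27). In endoderm it was at 10.1, 12.6 and 9.34 CPM, and the difference of 0.42 from hPSC did not pass (adjusted p = 0.198). In the libraries labelled nucleus FZD6 was at 22.6 to 27.4 CPM in hPSC. Ectoderm at 8.12 to 18 CPM and endoderm at 3.96 to 16.7 CPM lay below that, and mesoderm at 114 to 116 CPM above, without a test.

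FZD7 behaved unlike the others, with no call in cytoplasm between any 2 of the 4 cell types. The 6 log2 differences ran from 0.01 to 0.27, and its cytoplasmic means were 93.9 ± 13.7, 116 ± 16.3, 126 ± 9.02 and 99.5 ± 9.89 CPM (SD, n = 3) in hPSC, ectoderm, endoderm and mesoderm. A missed threshold does not show equality, and several alternatives did call a difference. Total counts called FZD7 higher than in hPSC in endoderm (0.42, adjusted p = 0.00552). TPM called it higher in ectoderm (0.54, adjusted p = 0.0192) and in endoderm (0.62, adjusted p = 0.00336). For ectoderm against hPSC just 4 of 7 alternatives left FZD7 without a call. For ectoderm against mesoderm 6 of 7 did, and the same held for endoderm against mesoderm. On chromatin edgeR called FZD7 lower than in hPSC in all 3 lineages. There it was at 546, 526 and 569 CPM in hPSC, 355, 376 and 299 CPM in mesoderm, 375, 337 and 346 CPM in endoderm and 268, 219 and 307 CPM in ectoderm. The hPSC libraries lay above all the others. The log2 changes were -1.07 (adjusted p = 1.53e-07) in ectoderm, -0.45 (adjusted p = 0.0131) in endoderm and -0.72 (adjusted p = 2.48e-04) in mesoderm. The endoderm call was lost with Ensembl-listed transcripts (-0.29, adjusted p = 0.0679) and with all 4 cell types in 1 fit (-0.38, adjusted p = 0.0521), and the mesoderm call with TPM (-0.27, adjusted p = 0.209).

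The other members were compared on chromatin in the same way. Against hPSC on chromatin, 6 of 8 members were called in ectoderm, 4 of 5 in endoderm and 7 of 7 in mesoderm, beside 73.6%, 67.5% and 63.6% of genes. In ectoderm FZD1 rose by 3.95, FZD5 by 3.77, FZD2 by 3.72, FZD3 by 3.00 and FZD4 by 0.67. In endoderm FZD4 rose by 4.36 and FZD1 by 2.08, while FZD5, over its shorter model, was lower by -1.89. In mesoderm FZD1 rose by 3.20, FZD2 by 1.96, FZD6 by 1.58 and FZD4 by 1.20. FZD5 in mesoderm was lower by -0.44 (adjusted p = 0.013). That call was lost with TPM (-0.04, adjusted p = 0.872), with Ensembl-listed transcripts (-0.13, adjusted p = 0.474), with all 4 cell types in 1 fit (-0.24, adjusted p = 0.21) and without mesoderm chromatin library 1 (adjusted p = 0.0634). FZD3 in mesoderm was lower on chromatin by -0.68 (adjusted p = 0.045) by counts and higher by 0.68 per length, over the shorter model. The count-based call was lost without mesoderm library 1 or 2 or hPSC library 1 or 2 (adjusted p = 0.114 to 0.248).

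FZD3 was assigned to different transcripts in different tables. ENST00000240093 took 85.5% of its hPSC counts, and ENST00000537916 took 91.7% in ectoderm. The hPSC libraries were uneven: ENST00000240093 took all FZD3 counts in chromatin library 1 and none in chromatin library 3, which was also the library where FZD3 was low, at 23.8 CPM against 75.6 and 70.9 CPM. The ectoderm libraries ranged from 83.3% to 96.8% for ENST00000537916. The division between the isoforms is an estimate of the quantifier, and a swing from all to none within 1 group was not tested further. FZD6 had a nonsense-mediated-decay transcript, ENST00000522484, that took 8.33% of its counts in hPSC and 17.9% in ectoderm. The rows of FZD1, FZD8 and FZD10 carry no Ensembl transcript identifier in any table.

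For each of the 5 members in all tables, the genes whose pattern over the 16 group means was most alike were listed by Pearson's r among 10047 genes, as a description without a test. FZD7 was most like NUP210 (r = 0.96), ATP2A2 (0.96) and DAGLB (0.95). FZD6 was most like SLC38A2 (0.97), ACVR2A (0.96) and CRISPLD1 (0.94). FZD5 was most like MN1 (0.96), NAV1 and LINC00910 (both 0.95). FZD4 was most like BMPER (0.95), TTN (0.94) and COCH (0.94), and FZD1 was most like BCORL1 (0.95), AHDC1 (0.94) and INSIG1 (0.94). The group means within a cell type share that cell type's table.

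The other genes of the Wnt pathway were taken from lists of 77 genes. Between cytoplasm and nucleus, 30 of 59 tested were lower and 6 higher in mesoderm, 29 and 3 of 51 in ectoderm, 31 and 6 of 50 in endoderm, and 26 and 4 of 43 in hPSC. Of all genes, 31.4%, 26.8%, 35.6% and 30.4% were lower and 31.9%, 27.5%, 34.4% and 35.2% higher. The list medians were -0.87, -0.51, -0.98 and -1.25. Genes of membrane and secreted proteins made up most of the lower calls. The secreted Wnt ligands varied, with 7 of 11 tested lower in mesoderm, 3 of 7 in ectoderm, 4 of 5 in endoderm and 0 of 3 in hPSC. Co-receptors were lower for 5 of 6 tested in mesoderm, 4 of 6 in ectoderm, 4 of 5 in endoderm and 5 of 5 in hPSC, with medians of -2.23, -1.13, -3.41 and -2.90. PTK7, a Wnt co-receptor of planar polarity, was at 50.9 CPM in cytoplasm and 712 CPM in nucleus in hPSC (log2 change -3.88), and at 108 and 1210 CPM in endoderm (-4.25). Secreted inhibitors were lower for 4 of 8 in mesoderm, 5 of 5 in ectoderm, 8 of 9 in endoderm and 7 of 7 in hPSC, and SFRP1 was at 287 against 1580 CPM in hPSC (-2.54). Planar polarity genes were lower for 6, 7, 5 and 5 of 7 in the same order, with CELSR2 at -3.83 in hPSC.

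The intracellular transducers had no such shift. Of 10 tested, 3 were higher and 1 lower in mesoderm, 3 and 2 in ectoderm, 5 and 3 in endoderm, and 3 and 1 in hPSC, with medians of 0.09, 0.00, 0.40 and 0.17. GSK3A, a kinase of the β-catenin destruction complex, was higher in cytoplasm by 1.04 in hPSC and 1.56 in mesoderm. APC, the scaffold of that complex, was higher by 2.50 in ectoderm and 1.97 in endoderm. The difference between the lists was not tested.

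**Figure D5:**
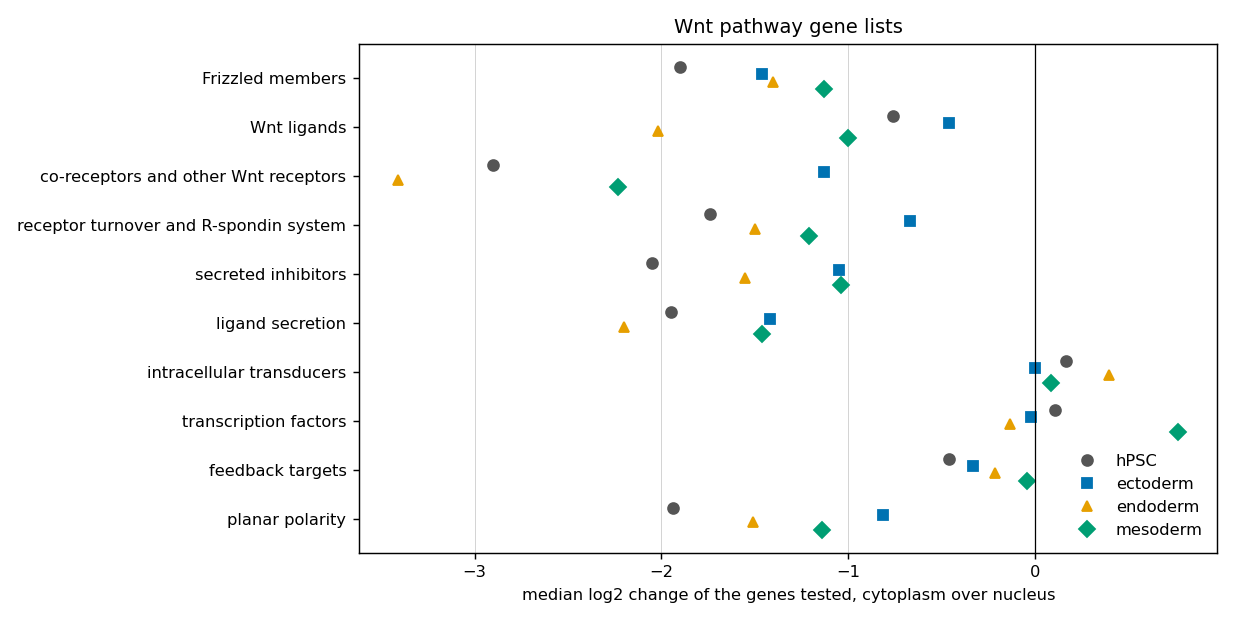
Each point is the median log2 change, cytoplasm over nucleus, of the genes tested in 1 Wnt pathway list and 1 cell type. The lists of receptors, co-receptors, inhibitors and planar polarity genes lie left of 0, with co-receptors in endoderm at -3.41, and the intracellular transducers lie between 0.00 and 0.40.

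In cytoplasm, the partners of the Frizzled receptors were compared with hPSC as well. Of the lists together, 23 of 46 genes tested were higher and 14 lower in ectoderm, 18 and 9 of 37 in endoderm, and 17 and 13 of 43 in mesoderm. Of all genes, 37.1%, 23.7% and 29.9% were higher and 34.8%, 22.7% and 27.6% lower. Co-receptors were higher for 5 of 5 in ectoderm and 4 of 5 in both endoderm and mesoderm, with none lower. On chromatin, of 5 tested, 1 was higher and 2 lower in ectoderm, 3 and 1 in endoderm, and 2 and 2 in mesoderm. Of all genes, 73.6%, 67.5% and 63.6% were called there in either direction. The values that follow are again those of cytoplasm. ROR2, a receptor for WNT5A, rose by 2.98, 3.21 and 1.85. WLS, which carries Wnt ligands to the cell surface, rose from 0.963 CPM to 54 CPM in ectoderm, 142 CPM in endoderm and 65.1 CPM in mesoderm. RNF43 rose in all 3 lineages, from 1.43 CPM to 12 CPM in ectoderm (log2 change 3.02) and 23.7 CPM in mesoderm (3.99), and by 3.20 in endoderm. Its relative ZNRF3 fell by 1.46 on the log2 scale in endoderm, and in mesoderm it was at 0.192 CPM, near the limit of detection, against 18.9 CPM in hPSC. The secreted Wnt antagonist FRZB rose in ectoderm, from 3.44 to 136 CPM (5.23), and in endoderm (3.77). AXIN2, a widely used target of β-catenin, was lower in ectoderm by -0.53 and in mesoderm by -1.05. TCF7, a transcription factor of the pathway, rose in endoderm from 0.244 to 24 CPM. The transcript model lengths of these partner genes were not compared between tables.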

How the data were processed

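RNA of 46 fractionation libraries was measured in 16 groups. Reads were processed with STAR and RSEM on hg38, per the submitters' processing notes, with no versions named in the sources used here. The authors deposited, per the file headers, a count and a TPM value for each transcript of a cell type's own assembly. The counts are whole numbers, and RSEM estimates may have been rounded. Transcript counts were summed per Ensembl gene here and divided by the column total for CPM. Counts naming no gene made up 0.277% to 9.6% of a library and stayed out of the tests. Column names were matched to sample titles. The columns coded Nei were read as nucleus because that was the single code left for that title, and 1 ectoderm column matched no sample and was not used. Among 45 pairs of libraries within a group, 0 held identical values.

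Tests used edgeR 4.0.16 in R 4.3.3 (quasi-likelihood, TMM scaling, filterByExpr with a minimum count of 10), two-sided, with Benjamini-Hochberg adjustment over all genes tested and a threshold of 0.05. Fits within a cell type used all its fractions, and fits between cell types used all libraries of both. No block for the repeat number was used. Alternatives were total-count scaling, DESeq2 1.42.0, no filter, limma 3.58.1 on log2(TPM + 1), Ensembl-listed transcripts alone, a replicate block, fewer libraries in the fit, the combined assembly and leaving out each library. The family and the gene lists were chosen with earlier results of these data known, and rows were then taken by symbol. Beyond the members, at most 2 called genes per list and comparison were named, those with the largest change at a mean of at least 5 CPM without overlap, and AXIN2, LEF1, LRP5, LRP6, RNF43, ZNRF3, SFRP1, SFRP2 and FRZB could be named anywhere. Figures were drawn with matplotlib 3.10.9.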

Additional observations from a re-analysis of the deposited data

Results flagged for a closer look

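The cytoplasm-to-nucleus difference of 6 members differed between a lineage and hPSC in 9 cases by the test of the difference itself (interaction, edgeR's quasi-likelihood test, Benjamini-Hochberg adjusted). In ectoderm FZD4 differed by 2.05 in log2 units (SE 0.22, adjusted p = 3.06e-07), FZD3 by 1.56 (SE 0.42, adjusted p = 0.00363) and FZD6 by 1.47 (SE 0.32, adjusted p = 0.000663). FZD7 differed there by 1.23 (SE 0.19, adjusted p = 1.48e-05) and FZD5 by 1.21 (SE 0.20, adjusted p = 3.61e-05). In endoderm FZD6 differed by 1.18 (SE 0.36, adjusted p = 0.0159). In mesoderm FZD1 differed by 0.98 (SE 0.35, adjusted p = 0.0481), FZD4 by 0.96 (SE 0.23, adjusted p = 0.00551) and FZD5 by 0.91 (SE 0.21, adjusted p = 0.0037). In each, the log2 change of cytoplasm over nucleus was higher than in hPSC, beside 28.6%, 17.8% and 16.9% of all genes called that way. For FZD3 it changed sign, from -0.83 in hPSC to 0.60 in ectoderm, where it did not pass the test. By TPM the 3 mesoderm values were -0.89, -0.35 and 0.01. The test takes the labels as given. The mitochondrial share was higher in nucleus than in cytoplasm in hPSC, ectoderm and endoderm and lower in mesoderm. The part of this in the result was not tested.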

How the results depend on the processing

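Leaving aside the omission of single libraries, 758 recomputed values kept their direction and call, 51 lost the call, 30 gained one and 35 reversed; with 1 library left out, 814 kept both, 51 lost the call, 14 gained one and 9 reversed. Counts of members called that moved by over 1.5 times were as follows. For chromatin against nucleoplasm, hPSC went from 3 to 1 (total counts, and with just the 2 fractions fitted), ectoderm from 4 to 2 other members, FZD4 and FZD8, called higher (TPM), and endoderm from 4 to 2 (total counts, Ensembl-listed transcripts) or 1 (TPM). For cytoplasm against nucleus, ectoderm went from 7 to 4 with Ensembl-listed transcripts. On chromatin against hPSC, endoderm went from 4 to 2 with Ensembl-listed transcripts, and mesoderm from 7 to 4 with those. With all 4 cell types in 1 fit, on genes in all 4 tables, it had 4 of 5, with FZD2 and FZD3 not tested and FZD5 losing its call (-0.24, adjusted p = 0.21). The endoderm interaction count went from 1 to 5 (total counts) or 3 (TPM), and endoderm against mesoderm from 4 to 2 (TPM). The cause was not tested, except that Ensembl-listed transcripts leave out members with no identifier.

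Leaving out 1 library, cytoplasm against nucleus gave 7 to 8 calls in hPSC, 6 to 7 in ectoderm, 4 to 5 in endoderm and 6 in mesoderm. Chromatin against nucleoplasm gave 1 to 3, 2 to 4 and 3 to 4 in the first 3. Against hPSC in cytoplasm the counts were 5 to 7 in ectoderm, 3 in endoderm and 4 to 5 in mesoderm, and on chromatin 6 to 7, 4 and 5 to 7. The interaction counts were 5 to 6, 0 to 3 and 2 to 4. Between lineages the counts were 3 for ectoderm and endoderm, 6 for ectoderm and mesoderm, and 4 for endoderm and mesoderm.

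The log2 values that reversed were these. With total counts: chromatin against nucleoplasm FZD2 0.08 in hPSC, FZD3 0.01 and FZD8 0.11 in ectoderm and FZD4 0.30 in endoderm, FZD4 0.26 for ectoderm cytoplasm against nucleus, and FZD7 -0.12 for ectoderm against endoderm. With TPM, chromatin against nucleoplasm: FZD2 0.38 and FZD5 0.07 in hPSC, FZD1 0.24, FZD3 0.48, FZD5 0.37, FZD7 0.43, FZD8 0.57 and FZD9 0.32 in ectoderm, and FZD4 0.37 in endoderm. Also with TPM: FZD4 0.24 for ectoderm cytoplasm against nucleus, FZD9 0.03 for ectoderm against hPSC on chromatin, FZD5 0.17 for endoderm against hPSC in cytoplasm, FZD3 1.1 and 0.68 for mesoderm against hPSC in cytoplasm and on chromatin, and FZD7 -0.09 for ectoderm against endoderm. The TPM interaction values were FZD1 -0.17 and FZD9 0.43 in ectoderm, and FZD1 -0.89, FZD2 -0.74, FZD3 -0.32, FZD4 -0.35, FZD6 -0.72 and FZD7 -0.28 in mesoderm, where the median of all genes shifted by -0.78. With Ensembl-listed transcripts: FZD3 0.02 (ectoderm) and FZD4 0.03 (endoderm) for chromatin against nucleoplasm, FZD9 0.06 for ectoderm against hPSC on chromatin and 0 for its interaction. With DESeq2, FZD7 was 0 for hPSC chromatin against nucleoplasm and -0.06 for mesoderm against hPSC in cytoplasm. Over the omissions of 1 library, FZD7 reached -0.05 and 0 for hPSC chromatin against nucleoplasm, FZD4 0.03 for ectoderm cytoplasm against nucleus, FZD3 ran from -0.18 to 0.01 and FZD7 from -0.07 (also -0.04) to 0.12 for mesoderm against hPSC in cytoplasm, and FZD6 from -0.10 to 0.33 and FZD7 reached -0.09 and -0.05 for ectoderm against endoderm.

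Deviations of same-numbered libraries correlated at -0.45 to 0.28, and those of differently numbered libraries at -0.34 to 0.4. Such correlations cannot tell whether fractions of 1 number came from 1 culture. With a replicate block, the calls of FZD9 between hPSC chromatin and nucleoplasm (0.65, adjusted p = 0.0539), FZD6 between ectoderm and hPSC cytoplasm (0.51, adjusted p = 0.0546) and FZD3 between mesoderm and hPSC chromatin (-0.67, adjusted p = 0.051) were lost, and the block fit of mesoderm left out its 1 nucleoplasm library. Low depth limits FZD1 in hPSC and FZD10 in ectoderm. Mesoderm chromatin against nucleoplasm was not tested.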
